A study of Homo sapiens with 4 samples.

Results

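Histones are the proteins around which DNA is wrapped, and their genes fall into 2 kinds that were compared here at the level of promoter accessibility. The members were found by gene symbol: every row of the promoter table named as a replication-dependent histone gene (H2AC, H2BC, H3C and H4C genes, and H1 linker genes) or as a variant of H1, H2A or H3. This gave 83 of 28775 rows. Of these, 69 were clustered genes (55 on chromosome 6 and 14 on chromosome 1) and 12 were variant genes, among them H1-7, H1-8, H1-10, H2AX, H2AJ, H2AZ1, H2AZ2, H3-3A, H3-3B, H3-5 and H3-7. The remaining members were H4C16, a replication-dependent gene on chromosome 12, and H2AZ1-DT, the transcript that runs away from H2AZ1. Classes followed the symbol and the chromosome. H3-7, on chromosome 1, was thus counted as a variant, although its reference promoter was 98.3% identical to that of the clustered gene H3C13.

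The assay was ATAC-seq, which uses a transposase to insert sequencing adapters wherever chromatin is open. It was run on HEK293T, a human embryonic kidney cell line that carries extra chromosomes. The wild-type (WT) group had 2 libraries of unedited cells and the MORC2 KO group had 2 libraries of cells in which MORC2, an ATPase that compacts DNA, was knocked out. The KO libraries came from bulk pools edited with different guide RNAs, guide 1 for replicate 1 and guide 2 for replicate 2, so that guide and replicate cannot be told apart and each pool may hold cells with different edits. The comparison asks whether loss of MORC2 changes how open these promoters are. In bulk cells, a larger share of cells with an open promoter and a wider opening in each cell cannot be told apart.

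Replication-dependent histones are made in S phase, when the genome is copied and new nucleosomes are needed. Their genes lie in dense clusters, lack introns, often sit in head-to-head H2A and H2B pairs, and give mRNAs that end in a stem-loop in place of a poly(A) tail; NPAT gathers them in a nuclear compartment called the histone locus body. Variant histones such as H3.3 and H2A.Z are made through the whole cell cycle from polyadenylated mRNAs and are placed by chaperones of their own. H3.3, the product of H3-3A and H3-3B, is placed by HIRA or by DAXX and ATRX. H2A.Z, the product of H2AZ1 and H2AZ2, is placed by the SRCAP and EP400 complexes. H2AX is the variant that is phosphorylated around DNA breaks.

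The promoters of both kinds carry known elements, and the bases before the start of the members on which the results turn are shown here from RefSeq (GRCh38.p14), 5′ to 3′ on the strand of the gene. Capitals mark 3 motifs, each searched as exact letters on both strands: the sequence TATAAA of the core promoter, the motif CCAAT that NF-Y binds, and the octamer ATTTGCAT that OCT1, the product of POU2F1, binds. H2BC5 (chr6:26157971-26158120, plus strand) is shown because it was the member that passed the test. H2BC21 (chr1:149886683-149886832, minus strand) had the highest level of all members, and H2BC10 (chr6:26272781-26272930, plus strand) a low level with an octamer in place. H4C8 (chr6:26285535-26285684, minus strand) is shown as an H4 promoter with none of the 3 motifs in these bases. H3-3B (chr17:75779780-75779929, minus strand) and H2AZ1 (chr4:99950276-99950425, minus strand) are variant promoters.
H2BC5: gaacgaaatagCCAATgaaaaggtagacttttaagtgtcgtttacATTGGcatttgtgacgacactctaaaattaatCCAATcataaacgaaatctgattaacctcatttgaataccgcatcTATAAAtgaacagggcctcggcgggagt
H2BC21: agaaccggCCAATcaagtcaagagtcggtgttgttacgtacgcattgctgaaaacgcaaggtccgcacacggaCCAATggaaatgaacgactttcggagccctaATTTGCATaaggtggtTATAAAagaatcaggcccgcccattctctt
H2BC10: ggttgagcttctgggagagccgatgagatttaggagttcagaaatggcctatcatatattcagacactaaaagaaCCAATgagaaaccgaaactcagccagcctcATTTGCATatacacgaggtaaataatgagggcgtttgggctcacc
H4C8: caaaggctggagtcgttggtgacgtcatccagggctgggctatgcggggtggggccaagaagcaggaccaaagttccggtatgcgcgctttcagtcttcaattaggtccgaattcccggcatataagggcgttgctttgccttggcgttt
H3-3B: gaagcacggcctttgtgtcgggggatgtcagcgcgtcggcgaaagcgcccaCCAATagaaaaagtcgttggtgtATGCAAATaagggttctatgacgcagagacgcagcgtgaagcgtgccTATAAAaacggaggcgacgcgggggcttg
H2AZ1: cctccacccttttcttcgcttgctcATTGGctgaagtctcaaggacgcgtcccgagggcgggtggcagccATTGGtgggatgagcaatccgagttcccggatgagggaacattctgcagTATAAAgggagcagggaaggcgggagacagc

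A reference promoter, from 250 bases before to 50 bases after the start, was matched for 76 of the 83 members. Among those without one were H4C1, H4C3, H2AC12, H3C11, H3C12 and H3-5. The TATA box letters were found in 64.5% of the members' promoters against 10.0% of all 19554 promoters with a sequence, the CCAAT letters in 85.5% against 36.2%, and the octamer in 35.5% against 1.74%. The octamer lay in 14 of 18 clustered H2B promoters and 11 of 16 clustered H2A promoters, in 1 of 12 H3 promoters, and in 0 of 12 H4 and 0 of 6 H1 promoters. Neighbouring H2A and H2B genes can share one octamer, so that these counts are not independent. The H3 promoter with the octamer was that of H3C4, which has the same locus in the reference as that of H2AC7. It is therefore the same stretch counted again under H3. The CCAAT letters were in every clustered H1, H2A, H2B and H3 promoter with a sequence but in 3 of 12 H4 promoters. Among the 10 variant promoters with a sequence, 5 held the TATA box letters, 9 the CCAAT letters and 1, H3-3B, the octamer. These are matches of letters, with no statement about binding in these cells.

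Some copies of the clustered genes have identical or nearly identical promoters over the 300 bases compared. Whether reads from their wider windows can be told apart was not tested. The promoters of H4C14 and H4C15 on chromosome 1 were identical over all 300 bases, and the bases before the start of H4C14 (chr1:149832507-149832656, plus strand) stand for both. H4C11 (chr6:27823942-27824091, plus strand) and H4C12 (chr6:27831561-27831710, minus strand) on chromosome 6 differed at 5 of 300 bases, of which the 2 within these stretches are in capitals. Motifs are not marked in this pair, and both stretches hold the TATA box letters in lower case.
H4C14: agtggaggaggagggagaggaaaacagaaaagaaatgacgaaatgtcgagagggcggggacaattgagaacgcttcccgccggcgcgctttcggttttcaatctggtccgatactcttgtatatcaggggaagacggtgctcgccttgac
H4C11: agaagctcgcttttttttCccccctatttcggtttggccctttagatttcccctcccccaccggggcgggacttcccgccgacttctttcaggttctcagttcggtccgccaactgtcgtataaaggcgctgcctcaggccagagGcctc
H4C12: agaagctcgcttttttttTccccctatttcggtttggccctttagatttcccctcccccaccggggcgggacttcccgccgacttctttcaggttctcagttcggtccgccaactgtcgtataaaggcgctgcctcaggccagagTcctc

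H4C14 and H4C15 held 0 counts in all 4 libraries, as did 377 rows (1.31%) of the whole table. A count of 0 allows a level of up to 0.176 CPM in the deepest library and up to 0.332 CPM in the shallowest, taking 3 counts as the limit. Poorly mapping read pairs were discarded before counting, and the part of this step in the 2 zeros was not tested. Identity did not always go with an empty row. The promoters of H3C14 and H3C15 were identical over 296 bases, and these rows held 2.16 ± 0.553 and 2.42 ± 0.186 CPM in WT (SD, n = 2). Those of H2AC18 and H2AC19 were identical over 299 bases and held 8.09 ± 0.0107 and 9.49 ± 0.205 CPM. H4C11 and H4C12, identical at 98.3% of bases, stood at 10.3 ± 2.21 and 1.12 ± 0.176 CPM. Counts of all these rows are uncertain where reads could be placed on either copy. H3-7, whose reference promoter was 98.3% identical to that of H3C13, held 4 to 9 counts a library and was too low to test. With H4C14, H4C15 and H3-7 left out by the filter on low counts, 80 members were tested.

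The level of a promoter is given as CPM, the count scaled to a library of common size after TMM normalisation, over windows that the methods describe as 2 kb wide around the start. The total promoter count ranged from 9435801 to 15152636, of which mitochondrial rows took 20.6% (KO replicate 2) to 35.1% (WT replicate 2), and KO replicate 2 was the deepest library. Libraries of 1 group differed by more than sampling noise (chi-square per degree of freedom 1.32 for WT and 1.20 for KO, against 1.51 to 2.76 between groups). These values cannot show that the libraries are independent, since they do not tell at which step the libraries were separated. Independence was taken from the methods and not tested. The members held 0.311% (95% Wilson interval 0.307 to 0.315) and 0.324% (0.319 to 0.328) of nuclear counts in WT replicates 1 and 2, and 0.318% (0.314 to 0.322) and 0.323% (0.320 to 0.326) in KO replicates 1 and 2. The groups overlapped. These intervals and the limits for 0 cover counting error only. The intervals take each count as a separate fragment, although a fragment can enter several rows, so that they can be too narrow. Of the markers for HEK293T, VIM (73.0 to 85.8 CPM over the libraries) and NEFL (31.9 to 39.9) lay above the median WT row of 14.6 CPM, while NEFM (11.8 to 13.6) and PAX2 (5.86 to 7.89) lay below it. ALB, PTPRC, CD3E and INS, markers of other tissues, were at 1.11 to 5.82 CPM. The MORC2 promoter held 25.7 and 29.6 CPM in WT and 37.0 and 37.5 in KO, which does not check the edit itself.

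Levels varied over a wide range among the clustered genes. Their median in WT was 17.2 CPM, close to the 14.6 of all rows, but the highest, H2BC21, stood at 131 ± 3.15 CPM. H2AC25 followed at 89.0 ± 0.117 CPM and H2AC20 at 85.4 ± 1.39 CPM, next to H2BC5 at 85.0 ± 2.65. The WT libraries of H2AC20 and H2BC5 overlapped, while H2AC25 lay above both and H2BC21 well above all 3. H4C14 and H4C15 stood at 0. Among the clustered genes with a count, H4C12 was lowest at 1.12 ± 0.176 CPM, next to H4C7 and H4C9 at 1.24 ± 0.284 CPM each, and their libraries overlapped. Averaged over the 4 libraries, 25 of the 69 clustered genes lay under 5 CPM and 44 at or above it, a limit chosen after the values were seen. The nearest members on either side were H2BC8 at 4.92 and H2AC8 at 5.12 CPM, which are a neighbouring pair.

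By family, the median WT level was 23.7 CPM for the 18 H2B genes, 20.9 for the 17 H2A genes, 7.60 for the 6 H1 genes, 6.01 for the 14 H4 genes and 5.47 for the 14 H3 genes. Every family held members at high and at low levels. The part of discarded read pairs in the low levels was not tested. Within H1, for example, H1-2 stood at 30.6 ± 1.11 CPM and H1-5 at 1.29 ± 0.210. The octamer was found in 45.0% of the 40 clustered promoters with a sequence at or above 5 CPM and in 33.3% of the 24 under it, and the TATA box letters in 67.5% and 62.5%. H2BC21 and H2BC10 both hold the octamer in the bases shown above, at 131 and 1.78 CPM in WT.

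Genes of the clusters known for expression in testis were all low in this kidney-derived line. H2AC1 and H2BC1, the testis H2A and H2B pair, held 1.71 ± 0.225 and 2.36 ± 0.0443 CPM in WT. H1-6, the testis linker histone, held 2.59 ± 0.724 and H3-4, the testis H3, 4.88 ± 2.05. These 4 were grouped after their values were seen. Low levels were not particular to them, since 25 of the 69 clustered genes averaged under 5 CPM over the 4 libraries. In WT, H1-5 (1.29), H3C11 (1.61) and H2BC10 (1.78 CPM) lay below the testis gene of their family. H2AC1 was the lowest of the 17 clustered H2A genes.

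The 12 genes classed as variants, with H3-7 at 0.592 ± 0.103 CPM among them, had a median WT level of 34.0 CPM. H2AZ1 (88.5 ± 3.25) and H2AZ2 (87.7 ± 2.02) led and overlapped, followed by H3-3A (77.3 ± 9.05) and H2AX (60.0 ± 2.43), each below the last in both WT libraries. Below these lay H1-10 (40.4 ± 0.0201) and H3-3B (38.9 ± 2.76), which overlapped. H1-8, the oocyte linker histone, stood at 6.81 ± 0.234, H2AJ at 4.97 ± 1.74, H1-7, the spermatid linker histone, at 3.70 ± 0.0926, and H3-5, a testis H3, at 1.38 ± 0.392 CPM. H4C16, the H4 gene outside the clusters, had 20.3 ± 1.88 CPM.

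**Figure D1:**
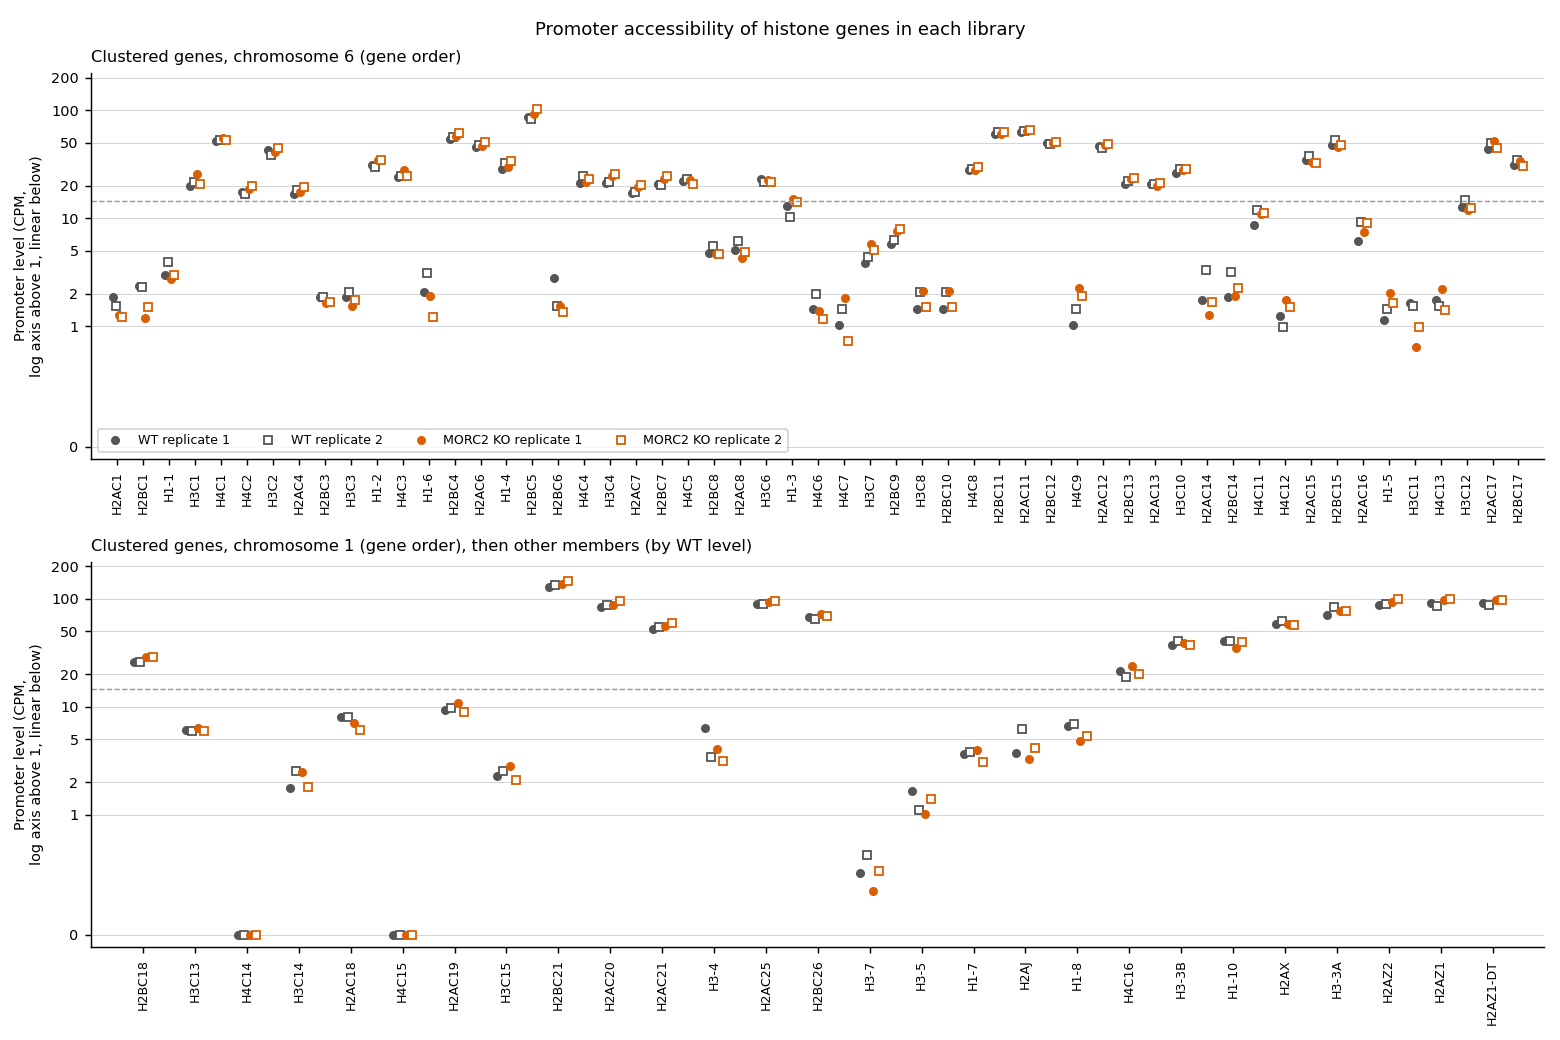
Promoter level of histone genes in each library (CPM, y axis, logarithmic above 1 and linear below), with chromosome 6 genes above and other members below. Circles are replicate 1 and squares replicate 2, grey is WT and orange MORC2 KO, and the dashed line is the median WT row at 14.6 CPM; the symbols of most members lie on top of one another, from H2BC21 at 129 to 146 CPM down to H4C14 and H4C15 at 0.

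Between MORC2 KO and WT, 1 of 80 tested members passed the test, H2BC5, which was higher in KO, and 0 were lower. Over all 27647 rows tested, 4.45% passed (adjusted p under 0.05 in edgeR's quasi-likelihood test), 3.45% as higher and 0.995% as lower in KO. An unadjusted p under 0.05 was reached by 16 members (20.0%), of which 10 were higher, against 20.3% of all rows. The share of members that passed was therefore not above that of the table.

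H2BC5 (Gene ID 3017), an H2B gene of the chromosome 6 cluster, held 86.9 and 83.2 CPM in WT replicates 1 and 2 and 92.6 and 103 CPM in KO replicates 1 and 2, from 751 to 1760 counts. The KO values did not overlap the WT values, and KO replicate 2 was the highest. The means were 85.0 ± 2.65 CPM in WT and 97.9 ± 7.47 CPM in KO (SD, n = 2 each). On the log2 scale KO was higher by 0.21 (SE 0.063, 95% interval 0.087 to 0.34), at an adjusted p of 0.0299 in edgeR. The call was kept in 5 of 14 other settings, over which the adjusted p ran from 0.0115 to 0.779 and the log2 fold change from 0.13 to 0.34. Leaving out KO replicate 2 gave 0.13 on that scale (adjusted p 0.591), and leaving out WT replicate 2 gave 0.18 (adjusted p 0.208). KO replicate 2 also had the greatest depth and the lowest mitochondrial share, and the part of these in the result was not tested.

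Members differed little between groups in either direction. KO lay above WT in all 4 pairings of libraries at 25 of 80 members (31.2%), against 25.2% of all rows, and below it at 17 (21.2%), against 25.4%. The log2 fold changes ran from −0.78 to 0.75 with a median of 0.030, and the median of all rows was −0.017.

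The clustered genes had a median log2 fold change of 0.041 over 67 tested, with 40 above 0 (59.7%, against 46.7% of all rows). At an unadjusted p under 0.05 stood 12 of them, 7 higher and 5 lower. The variant genes had a median of −0.049 over 11 tested, with 2 above 0 (18.2%). None of these variant genes passed the test in edgeR, in the DESeq2 Wald test or in limma-trend, and 3, 0 and 3 of them stood at an unadjusted p under 0.05 in these tools. Of all 27647 rows tested, 5626, 1426 and 5266 stood at that level in the same tools. The medians differed by 0.090, and by 0.049 to 0.12 when each library in turn was left out. No test of this difference was made. The summed CPM of clustered genes was 3.72 and 3.64 times that of variant genes in WT replicates 1 and 2, and 3.79 and 3.78 times in KO replicates 1 and 2. Both KO ratios lay above both WT ratios. The nearest of them, 3.78 in KO replicate 2 and 3.72 in WT replicate 1, lay closer together than the WT ratios did. No test of these ratios was made.

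The direction of change went with the level of the promoter, among the clustered genes as in the whole table. The 23 tested clustered genes under 5 CPM had a median log2 fold change of −0.16, with KO above WT in all 4 pairings at 4 and below it at 10. All nuclear rows under 5 CPM had a median of −0.25, and 387 of the 8688 tested lay above and 3752 below. The 44 clustered genes at or above 5 CPM had a median of 0.080, with 18 above and 5 below. All 18922 nuclear rows at that level had a median of 0.038, with 6585 above and 3221 below. The variant genes had medians below 0 on both sides of this limit, −0.16 (3 tested) under 5 CPM and −0.038 (8 tested) above. In the fit with offsets that follow level, 0 of 80 members passed edgeR's test and 10 stood at an unadjusted p under 0.05. Of all 27647 rows, 394 passed in that fit and 3605 stood at an unadjusted p under 0.05.

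**Figure D2:**
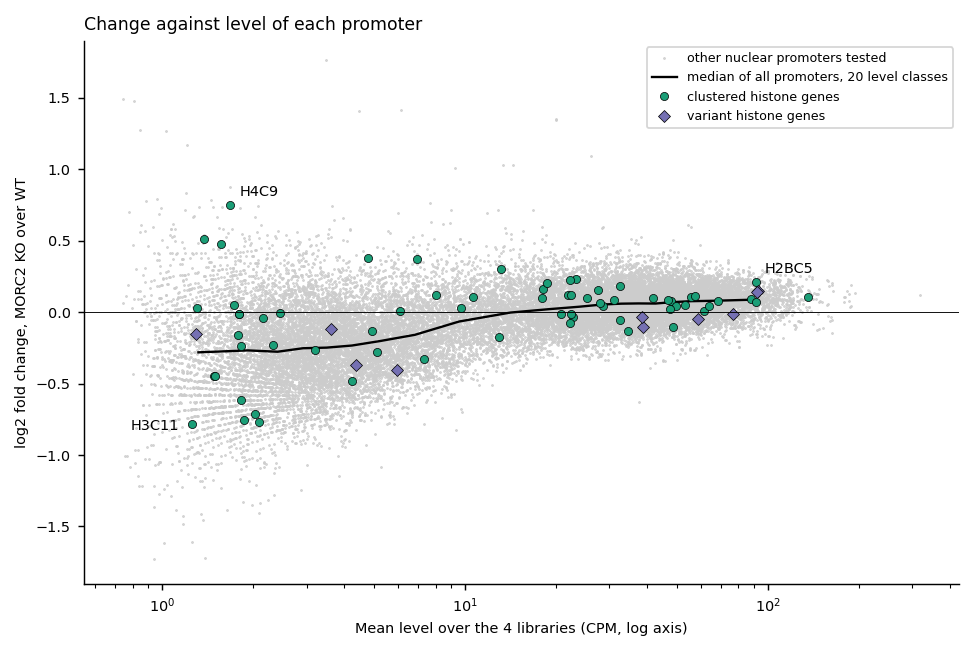
Log2 fold change of MORC2 KO over WT (y axis) against the mean level over the 4 libraries (CPM, logarithmic x axis) for clustered (green circles) and variant (purple diamonds) histone genes and all other nuclear promoters (grey), with the median of all promoters in 20 level classes as a line. The line runs from below 0 at low levels to above 0 at high levels, the members scatter around it, and the extremes H4C9 (0.75) and H3C11 (−0.78) both lie under 5 CPM.

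Among the linker genes of the clusters, which bind DNA between nucleosomes, H1-3 held 13.0 and 10.4 CPM in WT and 15.0 and 14.1 in KO, a log2 fold change of 0.30 (95% interval 0.044 to 0.56) that did not pass the test (adjusted p 0.166 in edgeR). H1-2 held 31.4 and 29.8 CPM in WT and 34.7 in each KO library (log2 fold change 0.18, adjusted p 0.207). For both genes the KO libraries lay above the WT libraries. H1-6 lay below in KO, at 1.93 and 1.23 CPM against 2.08 and 3.10 in WT. Over the 6 linker genes the median log2 fold change was 0.13, and 0 passed.

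The 17 H2A genes had a median log2 fold change of 0.043. H2AC25 held 89.1 and 88.9 CPM in WT and 92.4 and 94.5 in KO, with a log2 fold change of 0.071 (95% interval −0.053 to 0.20). H2AC20 had 85.4 ± 1.39 CPM in WT and 90.6 ± 6.14 in KO (SD, n = 2 each), with a log2 fold change of 0.094 (−0.030 to 0.22). The WT and KO libraries of H2AC25 did not overlap, whereas those of H2AC20 did. At the low end, H2AC14 held 1.77 and 3.32 CPM in WT and 1.28 and 1.70 in KO. Its log2 fold change was −0.71 (adjusted p 0.179), and without WT replicate 1, its lower WT library, it passed the test.

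The 18 H2B genes had a median log2 fold change of 0.024, and KO libraries lay above WT libraries at 8 of them and below at 4. H2BC21, the most open member, held 129 and 133 CPM in WT and 135 and 146 in KO. The groups did not overlap, and the log2 fold change was 0.11 (SE 0.061, 95% interval −0.011 to 0.23, adjusted p 0.297). H2BC9 held 5.82 and 6.31 CPM in WT and 7.61 and 8.03 in KO (log2 fold change 0.38, adjusted p 0.220). H2BC1, the testis H2B, held 2.39 and 2.33 CPM in WT and 1.19 and 1.52 in KO (log2 fold change −0.76, adjusted p 0.166).

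The 14 H3 genes had a median log2 fold change of −0.0075. The member with the lowest value was H3C11, with 1.66 and 1.55 CPM in WT against 0.825 and 0.997 in KO, a log2 fold change of −0.78 (SE 0.39, 95% interval −1.55 to −0.014, adjusted p 0.236). Its mean KO level was the lowest of all tested members. H3C7, by contrast, held 3.84 and 4.43 CPM in WT and 5.78 and 5.10 in KO (log2 fold change 0.38, adjusted p 0.304).

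The 12 tested H4 genes had a median log2 fold change of 0.052. H4C9 had the highest value of all members, at 1.04 and 1.44 CPM in WT and 2.29 and 1.93 in KO, with a log2 fold change of 0.75 (SE 0.36, 95% interval 0.051 to 1.44, adjusted p 0.208). H4C12 held 1.25 and 0.997 CPM in WT and 1.74 and 1.52 in KO, with a log2 fold change of 0.51 (−0.24 to 1.26). H4C7 held 1.04 and 1.44 CPM in WT and 1.83 and 0.880 in KO, so that its groups overlapped (log2 fold change 0.028, −0.75 to 0.80). At H4C1, the most open H4 gene, the levels were 51.7 and 52.9 CPM in WT and 55.7 and 53.2 in KO (log2 fold change 0.052). H4C16 on chromosome 12 held 21.6 and 18.9 CPM in WT and 23.6 and 20.2 in KO, with overlapping groups and a log2 fold change of 0.090 (−0.12 to 0.30).

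In the clusters, neighbouring rows can count the same fragments, since their windows overlap. In 12 pairs of neighbouring members, which take in 20 members, the counts differed by under 25% in every library. H3C8 and H2BC10 had identical counts of 14, 19, 23 and 26. At H2BC11 and H2AC11, a head-to-head pair, counts differed by at most 5.44%, at 60.5 and 62.7 CPM in WT and 60.5 and 63.0 in KO for H2BC11. Their log2 fold changes were 0.0078 and 0.043. A chain of such neighbours ran from H4C4 over H3C4, H2AC7 and H2BC7 to H4C5 on chromosome 6. The inner rows all lay higher in KO, with log2 fold changes of 0.23 (H3C4), 0.20 (H2AC7) and 0.22 (H2BC7) at 17.1 to 25.6 CPM, and their KO and WT libraries did not overlap, but none passed the test (adjusted p 0.167 to 0.282). The outer rows H4C4 and H4C5 had −0.034 and −0.076. H3C4 and H2AC7 have the same promoter locus in the reference table, so that the inner rows are not 3 separate observations.

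By position, clustered genes formed 4 runs, parted by more than 10 other rows of the table. The run on chromosome 6 from H2AC1 to H4C8 had a median log2 fold change of 0.047 over 34 genes, and the run from H2BC11 to H2BC17 had 0.040 over 21. On chromosome 1, the run from H2BC18 to H2AC21 had 0.032 over 9 tested genes, and the 3 genes from H3-4 to H2BC26 had 0.071. Each run held members on both sides of 0, the lowest at −0.77, −0.78, −0.32 and −0.49 and the highest at 0.38, 0.75, 0.16 and 0.078 in the same order.

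Of the variants, the H2A.Z genes were the most open and lay higher in KO. H2AZ1 held 90.8 and 86.2 CPM in WT and 97.4 and 98.3 in KO, with a log2 fold change of 0.15 (SE 0.063, 95% interval 0.021 to 0.27, adjusted p 0.165 in edgeR). H2AZ2, on another chromosome, held 86.3 and 89.2 CPM in WT and 93.7 and 99.4 in KO, with a log2 fold change of 0.14 (0.020 to 0.27, adjusted p 0.172). In both, the 2 groups did not overlap, and neither passed the test over all rows. With offsets that follow level, the log2 fold changes were 0.059 for H2AZ1 and 0.058 for H2AZ2 (adjusted p 0.721 and 0.731 in edgeR). H2AZ1-DT differed from H2AZ1 by at most 0.835% in counts and is not a further observation.

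At the genes of H3.3 and H2AX, differences were smaller than the spread between libraries. H3-3A held 70.9 and 83.7 CPM in WT and 77.5 and 76.0 in KO, so that both KO values lay between the WT values (log2 fold change −0.010, 95% interval −0.14 to 0.12). H3-3B held 37.0 and 40.9 CPM in WT and 39.1 and 37.3 in KO (−0.031, −0.19 to 0.12). H2AX held 58.3 and 61.7 CPM in WT and 58.6 and 57.5 in KO (−0.049, −0.18 to 0.086). In each of the 3 the groups overlapped. Their intervals overlapped that of H2AZ1 (0.021 to 0.27), and no difference between these genes was tested.

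H1-10 held 40.4 CPM in each WT library and 34.6 and 39.7 in KO, with a log2 fold change of −0.11 (−0.26 to 0.049). H1-8 lay lower in KO, at 4.86 and 5.34 CPM against 6.65 and 6.98 in WT, with a log2 fold change of −0.40 (−0.78 to −0.024) that did not pass the test (adjusted p 0.214). H2AJ held 3.74 and 6.20 CPM in WT and 3.30 and 4.16 in KO (−0.37, −0.81 to 0.067), with groups that overlapped. The rows of H1-10, H2AX, H3-3B and, among the clustered genes, H2AC12 differed by under 25% from that of a neighbour outside the histone genes (H1-10-AS1, DPAGT1, MIR4738 and MIR3143), so that their counts are not assigned to 1 gene.

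**Figure D3:**
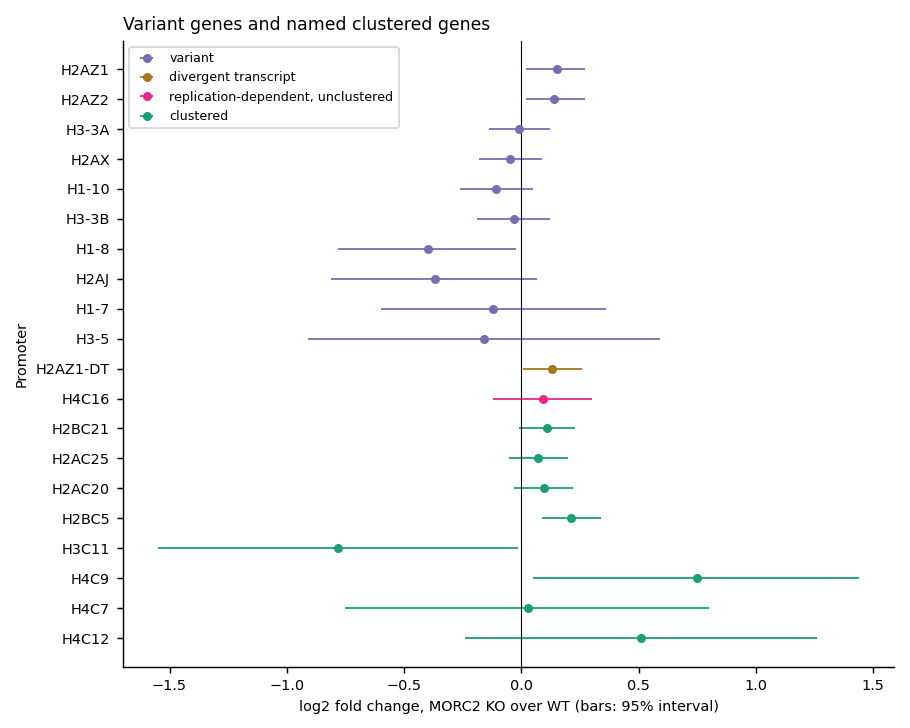
Log2 fold change of MORC2 KO over WT (x axis) for tested variant genes, H2AZ1-DT, H4C16 and the named clustered genes, with 95% intervals from the edgeR fit as bars. H2BC5 lies at 0.21 with a narrow interval, the H2A.Z genes at 0.15 and 0.14, H3-3A at −0.010, and the intervals widen for genes of few counts such as H3C11, H4C9, H4C7 and H4C12.

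The genes that supply and deposit histones were read from 3 lists. Of 16 genes of the histone locus body and of histone mRNA processing, 1 was lower in KO and 0 were higher, beside 0.995% of all rows called lower and 3.45% called higher, so that nothing about the list is read from 1 gene. It was CCNE1, cyclin E1, which with CDK2 phosphorylates NPAT at the start of S phase. Its promoter held 45.1 and 47.0 CPM in WT and 37.9 and 37.8 in KO, and the groups did not overlap. The log2 fold change was −0.28 (SE 0.076, 95% interval −0.43 to −0.13, adjusted p 0.0140 in edgeR). The call was kept in 9 of 14 other settings, over which the log2 fold change ran from −0.34 to −0.15 and the adjusted p from 0.00267 to 0.783. It was lost without KO replicate 1 (adjusted p 0.0994), without KO replicate 2 (0.256), without WT replicate 2 (0.150), with total count scaling (0.680) and in the DESeq2 Wald test (0.783). Other members of the list lay higher without passing. NPAT had 93.4 and 91.7 CPM in WT and 101 in each KO library (log2 fold change 0.12, adjusted p 0.239). CASP8AP2, a further part of the histone locus body, had 80.0 and 71.9 CPM in WT and 83.7 and 83.6 in KO (0.14, adjusted p 0.199). CPSF3, the nuclease that cuts histone mRNA, had 52.1 and 48.6 CPM in WT and 55.0 and 57.1 in KO (0.16, adjusted p 0.186). SLBP, which binds the stem-loop, had a log2 fold change of 0.064, HINFP, the factor of H4 promoters, −0.050, and POU2F1 −0.072.

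Of 12 chaperones and assembly factors of replication-dependent histones, among them the CAF-1 subunits CHAF1A (−0.091) and CHAF1B (0.028), 0 passed in edgeR and 1, NAP1L1 (0.15, adjusted p 0.172), stood at an unadjusted p under 0.05. The DESeq2 Wald test and limma-trend called 0 as well, while with offsets that follow level RBBP4, a histone-binding subunit of CAF-1, passed as lower. RBBP4 held 126 and 131 CPM in WT and 120 and 117 in KO (log2 fold change −0.12, adjusted p 0.265). Of 13 chaperones and remodellers of variant histones, 0 passed and 0 stood at an unadjusted p under 0.05 in edgeR, in the DESeq2 Wald test and in limma-trend, while with offsets that follow level 0 passed and 3 stood at an unadjusted p under 0.05. Of all rows, 20.3% stood at an unadjusted p under 0.05 in edgeR with TMM scaling. Their log2 fold changes ran from −0.11 to 0.11, with HIRA at 0.098, DAXX at 0.10, ATRX at −0.0015, SRCAP at −0.10 and EP400 at 0.0020. The medians of the 3 lists were 0.062, 0.026 and 0.0020.

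**Figure D4:**
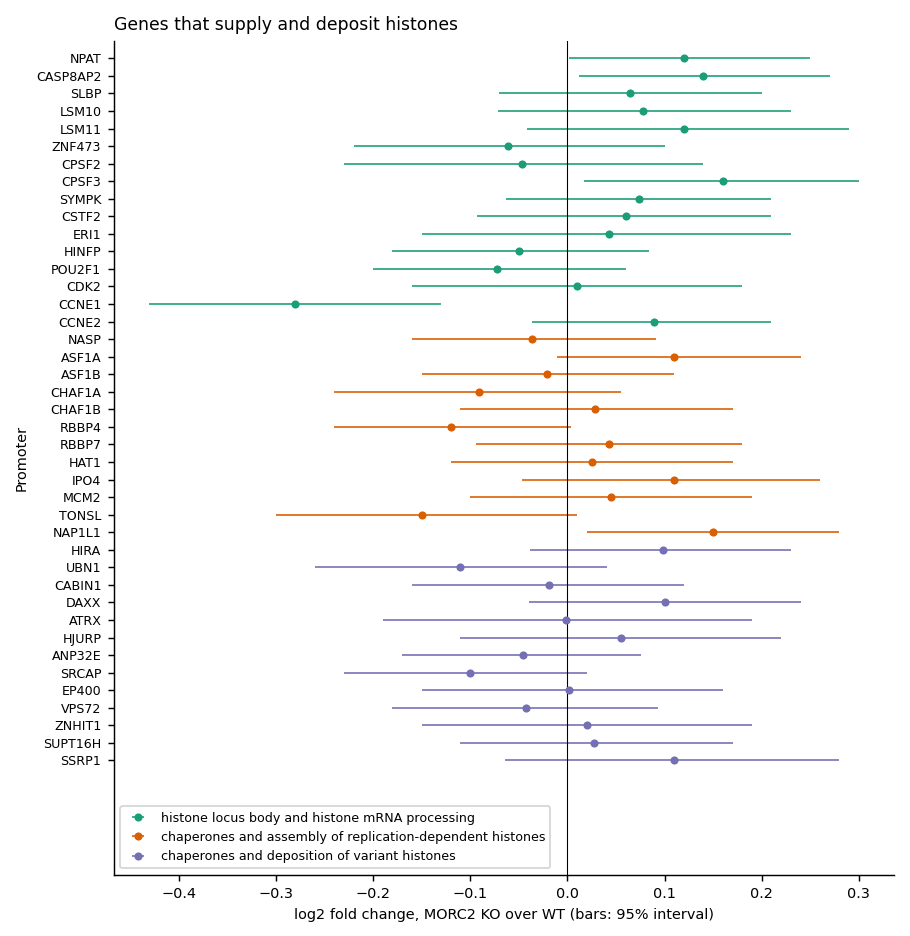
Log2 fold change of MORC2 KO over WT (x axis) for genes of the histone locus body and histone mRNA processing (green), assembly of replication-dependent histones (orange) and deposition of variant histones (purple), with 95% intervals from the edgeR fit as bars. CCNE1 at −0.28 lies apart on the left, and the other genes lie between −0.15 and 0.16.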

How the data were processed

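ATAC-seq libraries were made by the Omni-ATAC protocol from HEK293T cells, 2 of WT and 2 of MORC2 KO. Per the study's methods, reads were trimmed (Trim Galore) and aligned to the CHM13 telomere-to-telomere assembly (bowtie2), after which the authors kept properly paired reads of high mapping quality and dropped duplicates (Picard). The table deposited gives 1 row per promoter and 1 column per library, as counts of fragments without normalisation. Its counter and window are not given in the sources used here, although the methods describe promoters as 2 kb windows around the start. A fragment in overlapping windows can enter several rows.

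Rows were named through a RefSeq gene table (GRCh38.p14), which matched 28763 of 28775 IDs and gave chromosomes and gene order. All 4 libraries and all rows entered 1 fit: filterByExpr, TMM scaling and, in edgeR 4.0.16 under R 4.3.3, the legacy quasi-likelihood test without covariates, two-sided, with Benjamini-Hochberg adjustment over the 27647 rows kept. Standard errors were derived from the F statistics. The KO libraries came from separately edited pools, and the methods call the WT replicates independent without saying how they were separated. The same replicate number did not pair the libraries (correlation of deviations from the group means −0.00027), and the replicate block was an alternative.

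Named were every called member, variant and unclustered genes fixed by name, of which 1 is not reported here, the 3 clustered genes with the highest and the 3 with the lowest WT level among those with a count, those with the highest and lowest log2 fold change, and called genes of the supply lists. Other members were named after their values were seen. The members and lists were chosen with earlier results of these data known. Promoter letters came from RefSeq. Alternatives covered scaling (DESeq2 1.42.0 size factors, total count, loess offsets), mitochondrial rows, the filter, the edgeR 4 fit, the DESeq2 Wald test, limma-trend (limma 3.58.1, prior count 2), the replicate block, thresholds, similar neighbours, the motif window and leaving out each library. The deposited WT peak list was not used here, since its positions are on CHM13.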

Additional observations from a re-analysis of the deposited data

How the results depend on the processing

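The number of calls depended on the processing. Over all rows 1229 passed in edgeR, against 20 (19 higher, 1 lower) with total count scaling, 394 (215 and 179) with loess offsets, 787 (520 and 267) with a mean count of at least 50, 717 (590 and 127) in limma-trend, 7 (7 and 0) in the DESeq2 Wald test, 2249 (1551 and 698) at an adjusted p under 0.1, 355 (316 and 39) under 0.01, and 41 to 1637 when each library was left out, the lowest without KO replicate 2 and 230 without WT replicate 2. With the replicate block, 765 passed (553 and 212).

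The number of members called, and of clustered genes called, was 0 with total count scaling, loess offsets, a mean count of at least 50, the edgeR 4 fit, the DESeq2 Wald test, limma-trend and an adjusted p under 0.01, and 0 to 2 when each library was left out. At an unadjusted p under 0.05 stood 8, 10, 4, 15, 1 and 15 members in the first 6 of these. They were out of 80 tested, or 56 with the mean count of at least 50. Over all rows the numbers were 2949, 3605, 3886, 5381, 1426 and 5266. These were out of 27647 tested, or 19833 with the mean count of at least 50. Without KO replicate 2 or WT replicate 2 no member was called, and without WT replicate 1 H2AC14 joined H2BC5. With the replicate block the call of H2BC5 was lost (0 members, adjusted p 0.0861), and that of CCNE1 was kept. In that fit 13 of 80 members stood at an unadjusted p under 0.05, against 5247 of 27647 rows. H2BC5 had an adjusted p of 0.463 with total count scaling, 0.298 with loess offsets, 0.0660 with the mean count of 50, 0.0751 in the edgeR 4 fit, 0.779 in DESeq2 and 0.0866 in limma-trend. The variant genes had 0 calls in every setting run. Of the supply genes, total count scaling called 0 (none at an unadjusted p under 0.05), the DESeq2 Wald test 0 (1 at that level) and loess offsets 2 (CCNE1 and RBBP4), and 0 to 1 were called with a library left out.

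Total count scaling moved the median log2 fold change of all rows from −0.017 to 0.12, that of clustered genes to 0.18 and that of variant genes to 0.085, and gave 0.12 for H3-3A, 0.10 for H3-3B, 0.085 for H2AX and 0.023 for H1-10, all below 0 with TMM scaling of all 4 libraries. With loess offsets H2AC25 had −0.014. With each library left out, the medians ran from 0.022 to 0.071 for clustered genes and from −0.10 to 0.012 for variant genes, their difference from 0.049 to 0.12, and single genes that changed sign from −0.13 to 0.11 (H3-3A), −0.10 to 0.041 (H3-3B), −0.70 to 0.031 (H2AJ), −2.2e-05 to 0.22 (H4C16) and −0.46 to 0.57 (H4C7). With mitochondrial rows in the total, members held 0.204% and 0.210% of counts in WT and 0.216% and 0.257% in KO, where the 2 groups no longer overlapped. By definition this share falls as the mitochondrial share rises. The mitochondrial share was 34.5% and 35.1% in WT replicates 1 and 2, and 31.8% and 20.6% in KO replicates 1 and 2. Total count scaling leaves out the TMM factors, which were 0.9563 and 0.9572 in WT and 0.9703 and 1.126 in KO. The values given for it therefore all moved up. The cause of the other changes was not tested. Promoters under 5 CPM rest on few counts, and the clustered genes there had a median SE of 0.33 on the log2 scale, so that small changes were not detectable. The planned look at WT peaks and protein sequences of members was not run.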

Other observations

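Histone genes that the naming rule left out were read as a further list of 14, of which 11 could be tested. CENPA, the H3 variant of centromeres, held 50.7 and 53.3 CPM in WT and 59.8 and 50.8 in KO, with overlapping groups and a log2 fold change of 0.072 (95% interval −0.067 to 0.21). The genes of macroH2A, a variant of silent chromatin, were open as well, MACROH2A1 at 31.6 ± 2.19 CPM in WT and MACROH2A2 at 31.2 ± 0.966 (SD, n = 2). Their log2 fold changes were 0.058 and 0.073. H2BK1, at 14.7 ± 0.545 CPM in WT, lay at the level of the median row (14.6), and the other 10 genes averaged under 5 CPM over the 4 libraries. Among these 10, H2BW1 was highest at 5.73 ± 0.118 CPM in WT, while H2AB2 and H2AB3 held 0 counts in all 4 libraries and H2AB1 in both WT libraries. H2BW1 lay lower in KO at 4.22 and 4.10 CPM against 5.82 and 5.65, a difference of −0.47 on the log2 scale (adjusted p 0.186 in edgeR). None of the 11 passed in edgeR, in the DESeq2 Wald test or in limma-trend, and 1, 0 and 1 of them stood at an unadjusted p under 0.05. Of all 27647 rows tested, 5626, 1426 and 5266 stood at that level in the same tools.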
